A study of Mus musculus with 12 samples.

Results

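A set of 8 epithelial genes is described here in sorted cells of mouse hypothalamic neurospheres: Spint1, Spint2, St14, Mal2, Epcam, Krt8, Krt18 and Esrp1, 8 of the 48709 gene identifiers counted. The set was chosen by the counts of Spint1 and Mal2, which moved in opposite directions in 2 cell sorts. The values of Spint1 and Mal2 in both sorts are therefore a description with no test, and the other 6 genes were named beside them as epithelial genes. All cells came from the hypothalamus of C57BL/6 mouse embryos at day 18 and were grown as neurospheres, which are floating balls of neural cells, for 1 week with bFGF at 10 ng/ml. In one sort the cells had received an adeno-associated virus with an mCherry reporter for hypocretin (HCRT) cells. In the other they had received a lentivirus with an EGFP reporter for melanin-concentrating hormone (MCH) cells. The multiplicity of infection (virus particles per cell) was 10 for all 12 libraries. Each sort gave 3 reporter-positive and 3 reporter-negative libraries, 12 in all, and the negative cells had been exposed to the same virus. The promoter that drove each reporter is not given in the sources used here, and the 2 sorts differ in virus, reporter and RNA input (0.8 ng for mCherry, 2 ng for EGFP), which cannot be told apart when levels are set across sorts.

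Most of these genes mark cells that form sheets with an inner and an outer face. Matriptase, the product of St14, is a serine protease anchored in the membrane of epithelial cells, and Spint1 and Spint2 encode its inhibitors HAI-1 and HAI-2. EPCAM is an adhesion protein that HAI-2 protects from matriptase in the gut epithelium, MAL2 carries proteins to the apical membrane, keratin 8 and keratin 18 pair into the filaments of simple epithelia, and ESRP1 directs the epithelial form of splicing. The neural parenchyma is not a classical epithelium of this kind, but the choroid plexus, the ependyma and the pituitary, which lie next to or within the hypothalamic region, hold epithelial cells. MAL2 is also known from nerve terminals.

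Libraries held 16.3 to 32.9 M reads in genes, and levels are given as CPM (reads scaled to 1 M reads in genes) with the standard deviation (SD) over 3 libraries. Where a gene had no read in a library, 3 reads (0.0912 to 0.184 CPM, depending on depth) remain possible. The reporter transcripts were checked first. Pmch, the gene of MCH, stood at 17.2 ± 0.769 CPM (SD, n = 3) in EGFP-positive and 4.68 ± 0.587 CPM (SD, n = 3) in EGFP-negative libraries. Hcrt had 21 reads over the mCherry-positive and 11 over the mCherry-negative libraries, so the label of that sort was not borne out by its own transcript at this depth. Libraries of the mCherry sort stood apart from one another in genes of the pituitary. A list of 13 pituitary genes summed to 9.68, 2339 and 5558 CPM in mCherry-positive replicates 1, 2 and 3, and to 7.67, 225 and 180 CPM in mCherry-negative replicates 1, 2 and 3. Most of the sums of the positive replicates 2 and 3 was the single gene Pomc. It stood at 3.92, 2109 and 4251 CPM in mCherry-positive replicates 1, 2 and 3. For the 8 genes, results that rest on mCherry-positive replicates 2 and 3 are therefore given without them as well. The labels do not say whether replicates were separate cultures, so a p-value speaks only of the spread among these libraries, and that spread may be technical.

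The 250 bases before the RefSeq start of Spint1, Spint2 and Epcam are shown because all 3 genes had a positive fold change in the mCherry sort and a negative one in the EGFP sort, and the stretch lies outside the GENCODE gene. Krt8 had the same signs, but its stretch reaches into the gene and is not printed. Capitals mark the E-box CACCTG or its reverse CAGGTG, the letters that the repressors ZEB1, ZEB2 and SNAI2 bind in epithelial promoters. The stretches lie in GRCm38.p6 at chr2:119237110-119237359 (plus strand, Spint1), chr7:29281978-29282227 (minus strand, Spint2) and chr17:87635729-87635978 (plus strand, Epcam), each written 5′ to 3′ on the strand of its gene.
Spint1: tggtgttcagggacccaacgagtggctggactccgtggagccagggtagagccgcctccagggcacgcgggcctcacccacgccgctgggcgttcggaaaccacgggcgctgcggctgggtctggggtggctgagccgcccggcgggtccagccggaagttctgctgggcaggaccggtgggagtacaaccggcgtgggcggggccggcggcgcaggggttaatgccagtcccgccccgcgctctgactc
Spint2: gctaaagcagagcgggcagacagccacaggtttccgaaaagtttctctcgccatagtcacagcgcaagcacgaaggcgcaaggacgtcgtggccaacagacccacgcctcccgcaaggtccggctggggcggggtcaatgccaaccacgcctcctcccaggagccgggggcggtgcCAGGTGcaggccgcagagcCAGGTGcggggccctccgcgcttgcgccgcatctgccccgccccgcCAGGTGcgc
Epcam: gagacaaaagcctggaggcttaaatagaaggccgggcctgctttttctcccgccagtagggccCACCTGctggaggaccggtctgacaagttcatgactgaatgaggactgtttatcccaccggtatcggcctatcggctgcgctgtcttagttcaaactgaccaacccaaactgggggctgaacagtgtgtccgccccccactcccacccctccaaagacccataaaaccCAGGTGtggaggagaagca
The Spint1 stretch held no E-box. Spint2 held 3, starting 74, 55 and 9 bases before the start, and Epcam held 2, starting 187 and 19 bases before it. Krt18 held 1, and Krt8 held 1 that starts 111 bases before the RefSeq start and lies inside the GENCODE gene, since 140 bases of that stretch do. Counting it, 4 of the 5 member promoters in the RefSeq table held at least 1, against 17.2% of 32851 promoters of the same length. Spint1 and Spint2 held 3 matches each to the GC box GGGCGG (reverse CCGCCC) and Epcam held 1, against 32.7% of all promoters with a match. Neither the Grainyhead-like motif AACCNGTT (reverse AACNGGTT, in 1.79% of all promoters) nor TATAAA (reverse TTTATA, in 12.4%) was found in any of the 5. Motifs were searched on both strands, and no match overlapped another in these promoters. A match is a description of letters and not a site.

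Spint1 (ENSMUSG00000027315, GRCm38 chromosome 2, 119237362 to 119249527, plus strand) encodes HAI-1. In mCherry-positive replicates 1, 2 and 3 it stood at 5.23, 10.2 and 17.3 CPM, and in mCherry-negative replicates 1, 2 and 3 at 0.395, 1.32 and 0.968 CPM. Each positive library lay above every negative one. In EGFP-positive replicates 1, 2 and 3 it stood at 0, 0 and 0.0323 CPM, a single read in all 3 libraries, and in EGFP-negative replicates 1, 2 and 3 at 3.53, 2.56 and 1.17 CPM, with 172 reads. Here the positive cells were the lower ones. A count of 0 allows a level of up to 0.176 CPM in EGFP-positive replicate 1 and 0.112 CPM in replicate 2. The ratio of summed reads was 12.8 in favour of mCherry-positive cells (95% interval 10.1 to 16.3), and 193 in favour of EGFP-negative cells (34.2 to 7661), intervals that cover counting error only. The fitted log2 fold change of the mCherry sort was 3.55 ± 0.59 (SE). Mean levels ran from 10.9 ± 6.05 CPM (SD, n = 3) in mCherry-positive over 2.42 ± 1.19 CPM in EGFP-negative and 0.894 ± 0.467 CPM in mCherry-negative to 0.0108 ± 0.0187 CPM in EGFP-positive cells. EGFP-negative and mCherry-negative libraries overlapped and the other neighbours in this order did not. Since whole sorted populations were sequenced, fewer cells that make the transcript and less transcript per cell cannot be told apart, here and for all genes below.

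Spint2 (ENSMUSG00000074227, chromosome 7, 29256323 to 29281912, minus strand) encodes HAI-2 and had the higher mean level of the 2 inhibitors per length of exon in every group. It stood at 11.0, 51.7 and 100.2 CPM in mCherry-positive replicates 1, 2 and 3 and at 8.43, 17.6 and 24.0 CPM in mCherry-negative replicates 1, 2 and 3. Replicates 2 and 3 of the positive cells lay above all negative libraries, and replicate 1 lay within their range. The log2 fold change of 1.65 ± 0.63 (SE) missed the threshold (edgeR's quasi-likelihood test, adjusted p = 0.206). It reached an adjusted p of 0.0457 without mCherry-positive replicate 1, and was -0.56 without mCherry-positive replicates 2 and 3. Between the EGFP groups Spint2 stood at 16.2, 13.4 and 10.7 CPM in positive replicates 1, 2 and 3 and at 20.4, 17.9 and 19.8 CPM in negative replicates 1, 2 and 3. All 3 positive libraries lay below all 3 negative ones, as did 24.5% of the genes tested in that sort. The log2 fold change was -0.43 ± 0.18 (SE; edgeR, adjusted p = 0.143), and passed without EGFP-positive replicate 1 (adjusted p = 0.0230).

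St14 (ENSMUSG00000031995, chromosome 9, 31089402 to 31131853, minus strand), the protease that both inhibitors block, was not called in either sort. Its level was 3.72, 4.71 and 3.53 CPM in mCherry-positive replicates 1, 2 and 3 and 3.85, 1.90 and 0 CPM in mCherry-negative replicates 1, 2 and 3. Mean levels were 3.99 ± 0.637 and 1.92 ± 1.93 CPM (SD, n = 3), and the log2 fold change of 1.03 ± 1.04 (SE) had an adjusted p of 0.631 by edgeR. In EGFP-positive cells it stood at 2.06, 2.08 and 1.78 CPM, above the 1.4998, 1.09 and 0.430 CPM of EGFP-negative replicates 1, 2 and 3. That log2 fold change, 1.04 ± 0.44 (SE), also missed the threshold (edgeR, adjusted p = 0.148), and 13.4% of genes tested in the sort had all positive above all negative libraries. In EGFP-positive libraries St14 thus had the positive sign while Spint1 and Epcam had the negative one.

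The list of proteases, their inhibitors and HGF signalling held 13 genes. In the mCherry sort 9 passed the filter on low counts, and apart from Spint1 none was called by edgeR (1 of 8 at an unadjusted p under 0.05) or by DESeq2. Among the 5 that passed for EGFP, Hgf rose. It encodes hepatocyte growth factor, which HAI-1 keeps from being activated by blocking the HGF activator, and stood at 6.11 ± 1.94 against 2.72 ± 1.01 CPM (SD, n = 3), a log2 fold change of 1.28 ± 0.35 (SE; edgeR, adjusted p = 0.0358). This call was lost on leaving out any of EGFP-negative replicates 1 and 3 and EGFP-positive replicates 2 and 3, with an adjusted p of up to 0.134. The receptor gene Met stood at 2.20 ± 0.264 and 1.57 ± 0.946 CPM in EGFP-positive and EGFP-negative cells, and was not called. Prss8, Tmprss2 and Tmprss4, other membrane proteases of epithelia, averaged at most 0.162 CPM in any group.

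Mal2 (ENSMUSG00000024479, chromosome 15, 54571192 to 54602847, plus strand) had 9.44, 23.3 and 12.01 CPM in mCherry-positive replicates 1, 2 and 3, and 1.68, 3.31 and 2.49 CPM in mCherry-negative replicates 1, 2 and 3. The lowest positive library lay well above the highest negative one. In EGFP-positive replicates 1, 2 and 3 it had 0.587, 0.335 and 1.49 CPM, below the 2.43, 4.42 and 3.87 CPM of EGFP-negative replicates 1, 2 and 3. The ratio of summed reads was 6.09 (95% interval 5.27 to 7.07) in favour of mCherry-positive cells and 4.09 (3.10 to 5.47) in favour of EGFP-negative cells. Fitted log2 fold changes were 2.55 ± 0.45 (SE) and -1.99 ± 0.52 (SE). The order of mean levels was that of Spint1: 14.9 ± 7.40 CPM (SD, n = 3) in mCherry-positive, 3.57 ± 1.03 in EGFP-negative, 2.49 ± 0.817 in mCherry-negative and 0.803 ± 0.606 in EGFP-positive cells, with overlap only between the 2 negative groups. Among genes tested, 12.7% had all mCherry-positive above all mCherry-negative libraries and 24.5% had all EGFP-positive below all EGFP-negative libraries, and nothing is read from this for Spint1 and Mal2.

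Of the 10 genes of apical membrane traffic, all passed the filter in the mCherry sort. Apart from Mal2 none was called by edgeR (2 of 9 at an unadjusted p under 0.05) or by DESeq2. Mal, its paralog and a gene of myelin as well as of apical transport, stood at 10.1 ± 3.61 against 5.39 ± 0.989 CPM in the mCherry sort (SD, n = 3; edgeR, adjusted p = 0.246). Between the EGFP groups it stood at 13.0 ± 0.407 against 9.72 ± 2.22 CPM (edgeR, adjusted p = 0.104), so the sign there was opposite to that of Mal2. Tpd52, whose product binds MAL2, stood at 109 ± 14.99 against 80.6 ± 5.49 CPM in the mCherry sort and 62.0 ± 0.863 against 71.2 ± 7.75 CPM in the EGFP sort, with no call. For EGFP 7 of the list passed the filter, and apart from Mal2 none was called by edgeR (1 of 6 at an unadjusted p under 0.05) or by DESeq2.

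**Figure D1:**
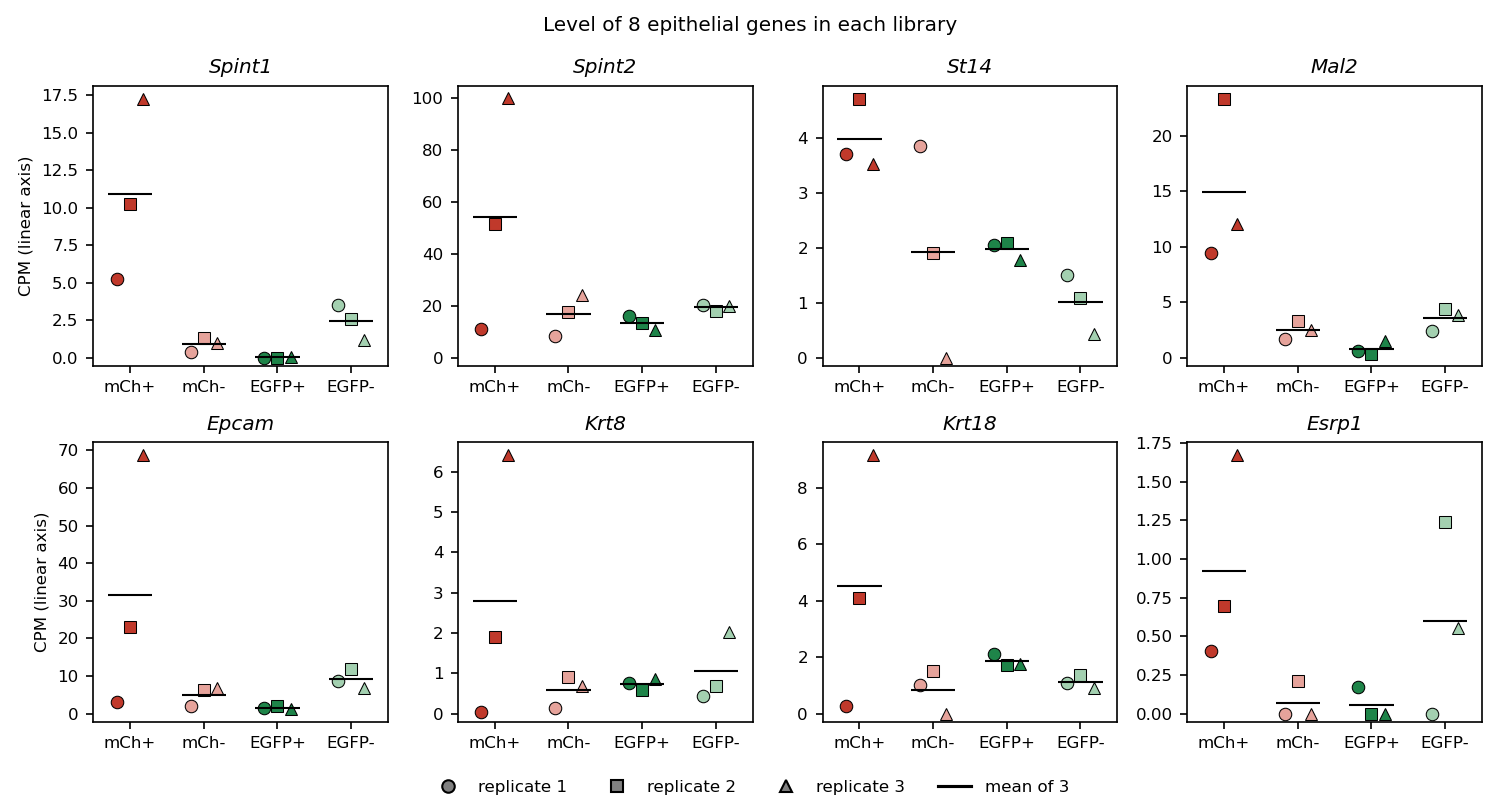
Level of the 8 genes in each of the 12 libraries, in CPM, with a line at the mean of 3 libraries for each group. Spint1, Mal2 and, at low levels, Esrp1 had all 3 mCherry-positive above all 3 mCherry-negative libraries, whereas Epcam, Spint2, Krt8 and Krt18 had only mCherry-positive replicates 2 and 3 above them.

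Epcam (ENSMUSG00000045394, chromosome 17, 87635979 to 87651129, plus strand) fell in EGFP-positive cells. Positive replicates 1, 2 and 3 had 1.47, 1.97 and 1.29 CPM and negative replicates 1, 2 and 3 had 8.59, 12.01 and 6.94 CPM, a gap with no overlap. All positive libraries lay below all negative ones for 24.5% of the genes tested in that sort. Epcam changed by -2.43 ± 0.29 (SE) on the log2 scale (edgeR, adjusted p = 9.38e-04). It passed on leaving out any of the 6 libraries in turn, with an adjusted p of 1.04e-04 to 0.00801. Of the 5 tested members that passed the filter in this sort, Epcam was the only one called, by edgeR and by DESeq2, against 7.07% of all 16326 genes called lower and 8.99% called higher. In the mCherry sort Epcam had 3.10, 23.1 and 68.7 CPM in positive replicates 1, 2 and 3 and 1.94, 6.29 and 6.91 CPM in negative replicates 1, 2 and 3. Positive replicates 2 and 3 stood above all negative libraries and replicate 1 stood among them. The log2 fold change of 2.58 ± 0.87 (SE) had an adjusted p of 0.159 by edgeR. It passed without mCherry-positive replicate 1 (adjusted p = 0.0361) and with no filter on low counts (adjusted p = 0.0244), and the value was -0.67 without mCherry-positive replicates 2 and 3.

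None of the 6 tested members was called in the mCherry sort by edgeR or by DESeq2, with 3 of the 6 at an unadjusted p under 0.05 by edgeR and 2 by DESeq2. In that sort 1.2% of all 17369 genes tested were called, 0.541% higher and 0.656% lower. All 6 passed the filter and had a positive sign there, with a median log2 fold change of 2.25 against 0.02 over all genes tested. This is a description of a set that was chosen with these data known. Esrp1 passed the filter only through its mCherry-positive libraries (87 reads, against 7 in mCherry-negative ones), so its sign there is no test. Without mCherry-positive replicates 2 and 3 the signs of Spint2, Epcam, Krt8 and Krt18 were negative.

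The list of cell adhesion and tight junction genes held 14 genes. None was called by edgeR in the mCherry sort, where 11 passed the filter and 4 had an unadjusted p under 0.05, and DESeq2 called F11r and Ocln higher. F11r, which encodes the junctional adhesion molecule A, stood at 12.2, 4.30 and 6.84 CPM in mCherry-positive replicates 1, 2 and 3 and at 1.58, 2.52 and 1.38 CPM in mCherry-negative replicates 1, 2 and 3. Its log2 fold change of 2.07 ± 0.52 (SE) had an adjusted p of 0.0845 by edgeR, and of 0.00183 by DESeq2. Ocln, which encodes the tight junction protein occludin, stood at 12.9, 12.7 and 13.7 CPM in mCherry-positive replicates 1, 2 and 3 against 4.97, 6.87 and 3.04 CPM in mCherry-negative replicates 1, 2 and 3 (edgeR, adjusted p = 0.0985). For EGFP, Ocln rose from 7.83 ± 2.29 CPM in negative to 17.8 ± 5.15 CPM in positive cells (SD, n = 3), a log2 fold change of 1.31 ± 0.29 (SE; edgeR, adjusted p = 0.0150), opposite in sign to Epcam. This call was lost without EGFP-negative replicate 1 (adjusted p = 0.0585) or EGFP-positive replicate 2 (0.0724). Cdh1, the gene of E-cadherin, had 0 reads in every mCherry-negative library and averaged at most 0.659 CPM in the other groups. F11r and Cdh1 were named after their values were seen.

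**Figure D2:**
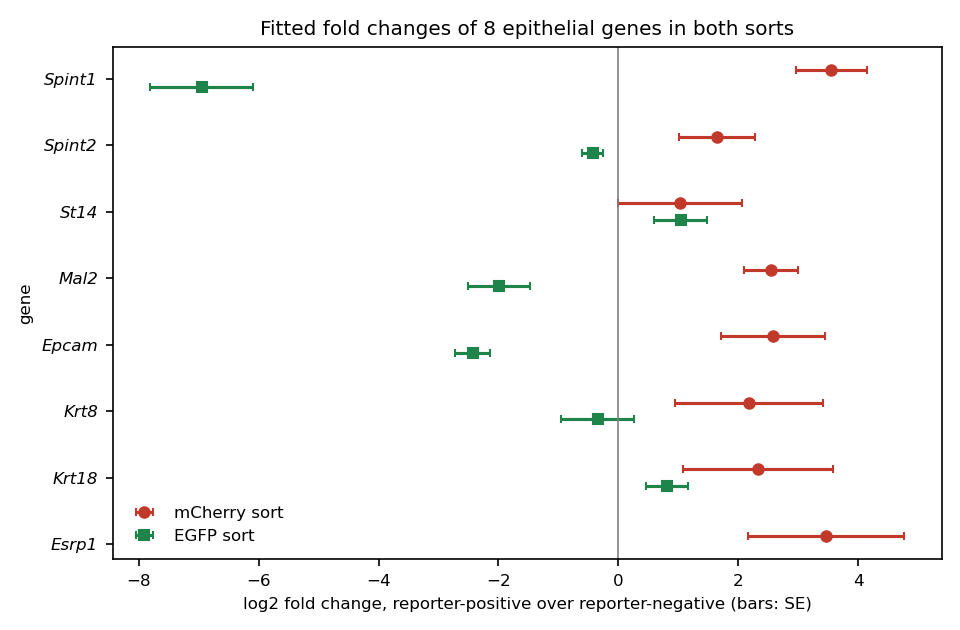
Fitted log2 fold change of positive over negative cells for the 8 genes in each sort, with bars of 1 SE. Esrp1 has no point in the EGFP sort, where it did not pass the filter on low counts. Points of Spint1 and Mal2 are a description with no test, and Epcam in the EGFP sort (-2.43) is the only tested member that passed the threshold in either sort.

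Krt8 (ENSMUSG00000049382, chromosome 15, 101996698 to 102004482, minus strand) and Krt18 (ENSMUSG00000023043, chromosome 15, 102028180 to 102032027, plus strand) lie side by side and encode partner keratins. Krt8 stood at 0.0408, 1.90 and 6.42 CPM in mCherry-positive replicates 1, 2 and 3 and at 0.132, 0.921 and 0.691 CPM in mCherry-negative replicates 1, 2 and 3. Krt18 stood at 0.286, 4.11 and 9.15 CPM in the same positive libraries and at 1.02, 1.504 and 0 CPM in the negative ones. Both keratins were above all negative libraries in positive replicates 2 and 3, while in replicate 1 Krt8 was below all of them and Krt18 was within their range. The log2 fold changes, 2.18 ± 1.24 (SE) for Krt8 and 2.33 ± 1.25 (SE) for Krt18, had adjusted p of 0.372 and 0.347 by edgeR. Without mCherry-positive replicates 2 and 3 they were -3.66 and -1.52.

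Between EGFP-positive and EGFP-negative cells the 2 keratins had opposite signs. Krt18 stood at 2.11, 1.71 and 1.75 CPM in positive replicates 1, 2 and 3, all above the 1.09, 1.36 and 0.921 CPM of the negative replicates. Of genes tested in that sort, 13.4% had all positive above all negative libraries. The log2 fold change of Krt18 was 0.81 ± 0.35 (SE) by edgeR (adjusted p = 0.149). Krt8 stood at 0.763, 0.595 and 0.873 CPM in positive and 0.446, 0.698 and 2.03 CPM in negative replicates 1, 2 and 3. Its log2 fold change of -0.35 ± 0.60 (SE; edgeR, adjusted p = 0.750) turned to 0.48 without EGFP-negative replicate 3. Neither direction of Krt8 was therefore beyond the spread. Of the exon bases of Krt8, 5.16% overlap the antisense RNA Gm36026, which was not analysed here, and the pseudogene Krt8-ps had 0 reads.

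The list of keratins and desmosomes held 13 genes, of which 7 passed in each sort. In the mCherry sort edgeR called none (1 at an unadjusted p under 0.05) and DESeq2 called Perp higher. In EGFP-positive cells Krt19 and Perp rose. Krt19, a further keratin of simple epithelia, stood at 4.46, 3.61 and 3.98 CPM in EGFP-positive against 1.4998, 1.98 and 1.47 CPM in EGFP-negative replicates 1, 2 and 3, with a log2 fold change of 1.38 ± 0.27 (SE; edgeR, adjusted p = 0.00941). Perp, which encodes a desmosome protein and is also a target of p53, stood at 7.60 ± 1.77 against 3.34 ± 0.718 CPM (SD, n = 3), a log2 fold change of 1.27 ± 0.26 (SE; edgeR, adjusted p = 0.0101). Both calls were made on leaving out any of the 6 libraries in turn, with adjusted p of up to 0.0433 for Krt19 and 0.0451 for Perp. Krt5, Krt14, Dsp and Pkp1, genes of stratified epithelia and desmosomes, averaged at most 0.350 CPM in any group.

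Esrp1 (ENSMUSG00000040728, chromosome 4, 11331933 to 11386783, minus strand) was the lowest of the 8 genes in mCherry-positive, mCherry-negative and EGFP-negative cells per length of exon. It stood at 0.408, 0.696 and 1.67 CPM in mCherry-positive and at 0, 0.215 and 0 CPM in mCherry-negative replicates 1, 2 and 3. The groups did not overlap, as for 12.7% of genes tested, and the log2 fold change of 3.47 ± 1.30 (SE) had an adjusted p of 0.198 by edgeR. In EGFP-positive replicates 1, 2 and 3 it stood at 0.176, 0 and 0 CPM, 3 reads in all, and in EGFP-negative replicates 1, 2 and 3 at 0, 1.24 and 0.552 CPM, 41 reads in all. There it did not pass the filter. The ratio of reads was 15.3 in favour of negative cells (95% interval 4.89 to 77.4, counting error only), while the 2-sided exact permutation test over libraries gave p = 0.4, with 0.1 the smallest that 3 against 3 allows. Of its exon bases, 2.01% overlap the antisense RNA Gm26663, which had 8 reads in all 12 libraries.

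The list of epithelial regulators held 13 genes, with 9 passing the filter in the mCherry sort and 6 in the EGFP sort, and edgeR called none in either (1 each at an unadjusted p under 0.05). DESeq2 called 1, Grhl1, higher in the EGFP sort. Grhl1, a Grainyhead-like factor, stood at 7.81 ± 4.10 against 3.97 ± 1.34 CPM (SD, n = 3) in the mCherry sort and at 5.56 ± 0.695 against 3.51 ± 0.728 CPM in the EGFP sort (edgeR, adjusted p = 0.350 and 0.0613). Its relative Grhl2 averaged at most 0.178 CPM and Esrp2 at most 0.158 CPM in any group. A list of 9 mesenchymal regulators and products, which epithelial splicing and adhesion genes oppose in other tissues, had no call by edgeR in the mCherry sort among 7 that passed (2 at an unadjusted p under 0.05), while DESeq2 called Prrx1 higher. Of 6 that passed for EGFP, 3 rose, where 8.99% of all genes tested were called higher. Vim, the intermediate filament gene vimentin, stood at 768 ± 92.5 against 515 ± 40.0 CPM (edgeR, log2 fold change 0.68 ± 0.11, SE, adjusted p = 0.00334). Prrx1 stood at 38.3 ± 0.932 against 23.8 ± 4.13 CPM (edgeR, adjusted p = 0.00999), and Snai2, which encodes an E-box repressor, at 5.503 ± 0.0895 against 2.32 ± 1.32 CPM (edgeR, adjusted p = 0.0381). The call of Snai2 was lost without EGFP-negative replicate 1 or 2 or EGFP-positive replicate 2 (adjusted p of up to 0.123), and that of Prrx1 without EGFP-negative replicate 2 or 3 or EGFP-positive replicate 2 (up to 0.0591). Zeb1 stood at 103 ± 8.61, 116 ± 33.3, 128 ± 16.3 and 152 ± 9.18 CPM, and Zeb2 at 128 ± 6.37, 150 ± 44.4, 114 ± 30.7 and 161 ± 24.5 CPM (SD, n = 3), each in the order positive and negative of the mCherry sort, then positive and negative of the EGFP sort. Neither repressor gene was called in either sort by edgeR with group as the only term, while a fit with the replicate number as a block called Zeb2 lower in the EGFP sort (edgeR, adjusted p = 0.0299).

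Over all 5 epithelial lists without the 8 members, 38 of 55 genes passed the filter in the mCherry sort, 34 with a positive sign, and their median log2 fold change was 0.71 against 0.02 over all genes. The share of positive signs over all genes was not counted, and neither value was taken without mCherry-positive replicates 2 and 3. Low genes such as Rab25 (155 against 20 reads) and F2rl1 (74 against 12) passed mainly through mCherry-positive libraries. Nothing is therefore read from these signs. None of the 38 was called by edgeR, with 6 at an unadjusted p under 0.05, and DESeq2 called 3 of 39 tested higher: F11r, Ocln and Perp. Over all genes DESeq2 called many more than edgeR in this sort, as given below under the processing. Its calls of list genes are therefore not read as a result about the lists. For EGFP 27 passed, and the median was 0.27 against -0.01. There 4 were called higher and none lower by edgeR (8 at an unadjusted p under 0.05), against 16.1% of all 16326 genes called in either direction, and DESeq2 called 5 higher and 1, Cldn6, lower.

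**Figure D3:**
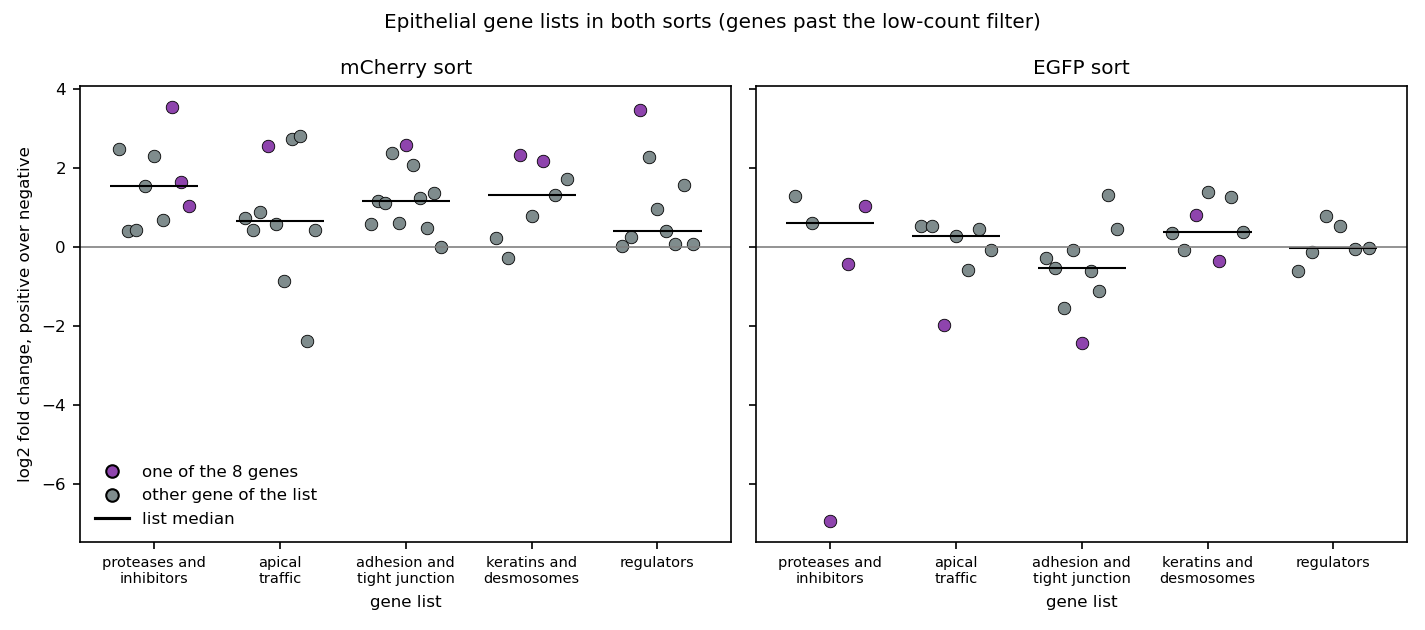
Log2 fold change of each gene of the epithelial lists that passed the filter, by list and sort, with the 8 genes in purple, other genes in grey and a line at the list median. In the mCherry sort 34 of the 38 grey genes lie on the positive side, and in the EGFP sort the grey genes lie on both sides, with a median of 0.27.

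The difference between the effects of both sorts, mCherry effect minus EGFP effect, was taken from a fit of all 12 libraries. It was 4.99 ± 1.07 (SE) on the log2 scale for Epcam (edgeR, adjusted p = 0.0356). Epcam was the only one of the 6 tested members called, against 1.44% of all 18063 genes, 0.886% higher and 0.559% lower. DESeq2 gave an adjusted p of 0.00217 and called no other of the 6, while edgeR with no filter on low counts also called Spint2 (adjusted p = 0.0209) and Esrp1 (0.0424). The call held without mCherry-positive replicate 1 (adjusted p = 0.00239) and without mCherry-negative replicate 3 (0.0408), and was lost on leaving out any other of the 12 libraries, with an adjusted p of up to 0.106. Without mCherry-positive replicates 2 and 3 the difference was 1.72 (adjusted p = 0.368). For Spint2 it was 2.05 ± 0.75 (adjusted p = 0.206), and it passed without mCherry-positive replicate 1 (0.0137). For Krt8, Krt18 and Esrp1 it was 2.52 ± 1.501, 1.48 ± 1.39 and 6.89 ± 2.28, with adjusted p of 0.460, 0.662 and 0.162. For St14 it was -0.06 ± 1.20 (adjusted p = 0.991). As a description, the difference was 10.5 for Spint1, a value that depends on how its single EGFP-positive read is treated in the fit, and 4.52 for Mal2.

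Levels of genes of other cell types moved with several of these values. In mCherry-positive replicate 1, whose 13 pituitary genes summed to 9.68 CPM, Spint1 (5.23 CPM), Mal2 (9.44 CPM) and Esrp1 (0.408 CPM, 10 reads) were above every mCherry-negative library. Epcam (3.10 CPM), Spint2 (11.0 CPM), Krt8 (0.0408 CPM), Krt18 (0.286 CPM) and St14 (3.72 CPM) were not. With mCherry-positive replicates 2 and 3 left out, the fitted log2 fold change was 2.57 for Spint1, 1.95 for Mal2, 2.39 for Esrp1 and 1.00 for St14 (edgeR, adjusted p = 0.720 for Esrp1 and 0.819 for St14), against negative values for Epcam, Spint2, Krt8 and Krt18. In the EGFP sort the pituitary list summed to 38.6 to 66.4 CPM in positive and 365 to 472 CPM in negative libraries. Pomc alone stood there at 27.9 ± 8.95 and 338 ± 51.2 CPM (SD, n = 3). Of the 9 tested genes of the list, 5 were called lower, against 7.07% of all genes, the direction of Spint1, Mal2 and Epcam. Of the defining pituitary genes, Fshb had no read but in EGFP-negative cells, and Pou1f1 had none in EGFP-positive cells. Among mCherry libraries no pituitary gene was called by edgeR (5 of 11 at an unadjusted p under 0.05) or by DESeq2. With no filter on low counts, edgeR called Cga, Pomc and Tshb higher there. The part of pituitary cells in the values of Epcam, Spint2, Krt8 and Krt18 was not tested.

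A list of 8 microglia genes summed to 809, 104 and 109 CPM in mCherry-positive and to 37.2, 61.5 and 215 CPM in mCherry-negative replicates 1, 2 and 3, with none called by edgeR in that sort (3 of 8 at an unadjusted p under 0.05), Cx3cr1 called higher by DESeq2, and no gene of the list at 0 in any group. It summed to 6.80 to 8.51 CPM in EGFP-positive and 39.04 to 62.4 CPM in EGFP-negative libraries. Of its 8 genes, 7 were called lower (7.07% of all genes), again the direction of Spint1, Mal2 and Epcam. The 12 choroid plexus genes went the other way in the EGFP sort, with 191 to 238 CPM in positive and 70.0 to 75.6 CPM in negative libraries and 6 of 9 tested genes called higher (8.99% of all genes), the direction of Krt18, Krt19 and St14. In the mCherry sort they summed to 37.4, 292 and 94.1 CPM in positive and 39.4, 90.9 and 26.3 CPM in negative replicates 1, 2 and 3, with none called by edgeR (1 of 9 at an unadjusted p under 0.05) and Sostdc1 called higher by DESeq2. Ependymal and tanycyte genes (9 listed, no gene at 0 in any group) summed to 99.7 to 137 against 35.6 to 82.9 CPM in the mCherry sort and 119 to 144 against 75.7 to 81.4 CPM in the EGFP sort. By edgeR 1 and 5 were called higher, against 0.541% and 8.99% of all genes. DESeq2 called 3 higher in the mCherry sort (Cfap65, Col23a1 and Foxj1) and 5 in the EGFP sort. A list of 10 neuronal genes summed to 1186 to 2194 against 1671 to 2299 CPM in the mCherry sort, with none called by edgeR (2 at an unadjusted p under 0.05) and Dcx called lower by DESeq2. For EGFP it summed to 921 to 1210 CPM in positive and 1520 to 1575 CPM in negative libraries. Of its 10 genes, 7 were called lower (7.07% of all genes), also the direction of Spint1, Mal2 and Epcam. A shared sign does not tie a list to a particular gene.

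Lists of glial and mural genes also moved in the EGFP sort. The 9 oligodendrocyte genes summed to 1251 to 1259 CPM in positive and 4280 to 4415 CPM in negative libraries. Called lower were 8 of the 9 (7.07% of all genes), the direction of Spint1, Mal2 and Epcam. Between the mCherry groups they summed to 3906 to 5632 against 3028 to 4268 CPM, with none called by edgeR or by DESeq2 (2 at an unadjusted p under 0.05 by each), and 6 of 9 were called higher in the difference of effects, against 0.886% of all genes. The 9 mesenchymal and mural genes summed to 74.6 to 111 CPM in EGFP-positive and 392.1 to 419 CPM in EGFP-negative libraries. Of 8 tested, 5 were called lower and 2 higher, against 7.07% and 8.99% of all genes. In the mCherry sort the mesenchymal and mural genes summed to 31.2 to 202 against 134 to 401 CPM. None was called there by edgeR or by DESeq2 (1 at an unadjusted p under 0.05 by each). The 8 astrocyte genes summed to 15965 to 19666 CPM in EGFP-positive and 9013 to 9305 CPM in EGFP-negative libraries. There 7 were called higher and 1 lower, against 8.99% and 7.07% of all genes. In the mCherry sort the astrocyte genes summed to 9634 to 13478 against 4799 to 8521 CPM, with 1 called higher by edgeR (0.541% of all genes). DESeq2, which called more genes over all in that sort, called 3 higher: Aqp4, Gfap and Gja1. No gene of these 3 lists was at 0 in any group. The 7 endothelial genes summed to 14.2 to 29.5 CPM in EGFP-positive and 2.33 to 5.92 CPM in EGFP-negative libraries. Most of these sums was Kdr, at 20.1 ± 6.75 against 2.35 ± 1.17 CPM (SD, n = 3). Of 3 tested there, 1, Kdr, was called higher, against 8.99% of all genes, while Cdh5 and Tek had no read in EGFP-positive libraries. In the mCherry sort the sums were 2.63 to 24.1 against 3.96 to 4.30 CPM. There edgeR called none (2 at an unadjusted p under 0.05) and DESeq2 called Kdr higher. The part of these cell types in the values of the epithelial genes was not tested.

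**Figure D4:**
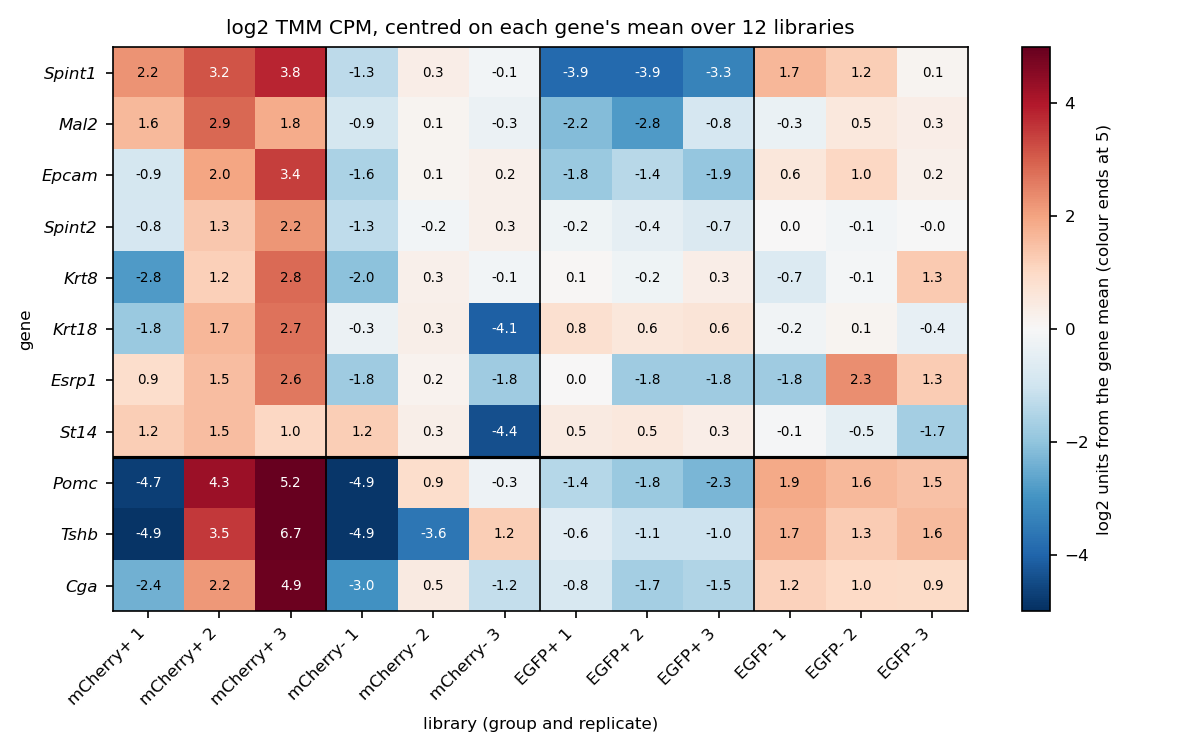
Heat map of the TMM-scaled log2 CPM of the 8 genes and of 3 pituitary genes (Pomc, Tshb and Cga) in the 12 libraries, each row centred on its own mean and the colour ending at 5 log2 units. In mCherry-positive replicate 1 Spint1, Mal2 and Esrp1 stay above the mCherry-negative libraries, while Epcam and the 3 pituitary genes do not.

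The likeness of 2 genes was measured as the root mean square difference of their centred log2 CPM profiles over the 12 libraries, among the 12493 genes that averaged 2 CPM or more, and a smaller value means a closer profile. The gene closest to Spint1 was Mal2, at 1.27, a pair that was chosen together for its pattern, but Spint1 ranked only 639 among the genes compared with Mal2. After it came Cx3cr1 (1.31), Gpr84 (1.35) and Ptpn6 (1.39), all known from microglia or other leukocytes, and Epcam ranked 7 at 1.44. Cx3cr1 stood at 76.1, 3.57 and 15.1 CPM in mCherry-positive replicates 1, 2 and 3, where Spint1 had 5.23, 10.2 and 17.3 CPM. Their order within these libraries thus differed. In EGFP-positive cells Cx3cr1 stood at 0.0927 ± 0.0736 CPM and Spint1 at 0.0108 ± 0.0187 CPM (SD, n = 3). Among the genes closest to Mal2 were Lrfn5 (0.694), Gda (0.712) and Nefl (0.721), the last a neurofilament gene, all known from neurons. Among those closest to Epcam were Cldn9 (0.550), Scg2 (0.598) and Resp18 (0.684). Cldn9 encodes a claudin, and Scg2 and Resp18 encode products of endocrine secretory granules. Cldn9 had 10.4 ± 11.5, 1.25 ± 1.02, 0.793 ± 0.234 and 3.03 ± 0.277 CPM (SD, n = 3) in the order given above for Zeb1. For Krt18 the nearest genes, Zfp977 (0.956), Sv2b (0.972), Got1l1 (0.983) and Gpr179 (0.999), were little like it, and Krt8 lay at 1.42. Spint1 differed from the flat line of its own mean by 2.53, Mal2 by 1.55, Epcam by 1.57 and Krt18 by 1.63.

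Per kilobase of exon, the level that can be compared between genes, Epcam (14.4 ± 15.3 CPM per kb, SD, n = 3) and Spint2 (11.9 ± 9.80) had the highest means in mCherry-positive cells, followed by Mal2 (5.06 ± 2.51), Spint1 (3.95 ± 2.19), Krt18 (3.14 ± 3.09), Krt8 (1.42 ± 1.67), St14 (0.522 ± 0.0834) and Esrp1 (0.147 ± 0.105). This order rests on mCherry-positive replicates 2 and 3: in replicate 1 alone Mal2 was highest at 3.20 CPM per kb, before Spint2 at 2.42, Spint1 at 1.89 and Epcam at 1.41. Spint2 led in the other 3 groups, at 3.66, 2.95 and 4.25 CPM per kb in mCherry-negative, EGFP-positive and EGFP-negative cells. In EGFP-negative cells Epcam (4.18 ± 1.18) was level with Spint2 (4.25 ± 0.286). In EGFP-positive cells Krt18 came second at 1.29 CPM per kb, before Epcam at 0.719. Spint1 and Esrp1, with 1 and 3 reads there, were the lowest of the 8 and could not be ranked against each other at this depth.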

How the data were processed

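RNA was made into cDNA with SMART-Seq v4 and 11 PCR cycles, and libraries with Nextera XT from 150 pg of cDNA, per the labels' protocols. The authors deposited raw counts, whole reads per Ensembl gene, with cutadapt 1.8, STAR 2.5.2b, HTSeq 0.6.1 and build GRCm38 named in the submitters' processing notes. The strand setting and the annotation release are not given in the sources used here, so sense and antisense reads cannot be told apart. Symbols and positions came from GENCODE M21, which matched 48349 of 48709 identifiers (the other 360 held at most 0.0279% of reads), and promoters from RefSeq on GRCm38.p6, with 5 of 8 members matched. The 5 entries that name no gene (31.4% to 38.2% of counted reads) were left out.

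Each sort was fitted on its own 6 libraries with edgeR 4.0.16 (TMM factors, filterByExpr with minimum count 10 and total 15, quasi-likelihood test, Benjamini-Hochberg adjustment over all genes, called at an adjusted p under 0.05), and the difference of effects on all 12. SE is the absolute log2 fold change over the square root of F. CPM are plain, without TMM factors. Likeness used TMM-scaled log2 CPM with a prior count of 2. Alternatives were DESeq2 1.42.0, its size factors, 2 other filters, a replicate block and leaving out libraries. Intervals are exact at 95%, and cover counting error only, since PCR reads without molecular identifiers can be copies of 1 molecule. Between replicates the chi-square per degree of freedom was 6.20 to 88.5, so no library was a copy of another. The fits were tested on simulated data.

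The 8 members and all lists were chosen with earlier results of these data known. Named from the lists were genes called over all genes, up to 6 per direction, sort and list, and for 4 members the 4 genes of nearest profile. Other genes of the lists were named after their values were seen, and some genes under these rules are not reported here.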

Additional observations from a re-analysis of the deposited data

Results flagged for a closer look

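The effects of the sorts are set against each other for 3 of the 8 genes, of which Spint1 and Mal2 were chosen for that contrast. For Spint1 all 3 mCherry-positive libraries stood above all mCherry-negative ones and all 3 EGFP-positive libraries below all EGFP-negative ones, with a difference of the log2 fold changes of 10.5. For Mal2 the same held, with a difference of 4.52. Neither difference was tested, because both genes were chosen for it. For Epcam the difference of 4.99 passed the test in the fit of 12 libraries (edgeR, adjusted p = 0.0356), as did 1.44% of 18063 genes. Its call was lost on leaving out any library but mCherry-positive replicate 1 or mCherry-negative replicate 3, with an adjusted p of up to 0.106, and the difference was 1.72 without mCherry-positive replicates 2 and 3 (edgeR, adjusted p = 0.368). Virus, reporter and RNA input changed together between the sorts and cannot be told apart.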

How the results depend on the processing

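Genes called in the mCherry sort numbered 208, against 1512 with DESeq2, 778 with no filter, 316 with a stricter filter, 343 with the replicate block, and 0 to 212 on leaving out 1 library. It was 0 without mCherry-negative replicate 1 or 2 or mCherry-positive replicate 3, with 3673, 2764 and 2439 genes at an unadjusted p under 0.05 by edgeR. Epithelial genes past the threshold there were Spint1 and Mal2, which chose the set and whose calls are no test. Without them the count was 0, against 3 with DESeq2, 2 with no filter and 2 without mCherry-positive replicate 1. In the EGFP sort 2622 genes were called (1137 to 5244 on leaving out 1 library, 3409 with the replicate block), and 7 epithelial genes (4 to 12), or 5 without Spint1 and Mal2 (3 to 10). The difference of effects was called for 261 genes, against 923 with DESeq2, 675 with no filter, 293 with the replicate block and 27 to 591 on leaving out 1 library.

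Leaving out mCherry-positive replicates 2 and 3 together was chosen after seeing the data. It assumes that the lone positive library varies like the negative ones. It gave 106 genes and 0 epithelial genes called in the mCherry sort and 167 for the difference. Log2 fold changes reversed to -0.56 for Spint2, -0.67 for Epcam, -3.66 for Krt8 and -1.52 for Krt18. Differences of effects reversed to -0.18 for Spint2, -3.32 for Krt8 and -2.40 for Krt18. The cause was not tested. For Zeb1 the mCherry fold change turned to 0.012 there and was -0.29 to 0.060 on leaving out 1 library. Zeb2 gained a call in the EGFP sort with the replicate block (edgeR, adjusted p = 0.0299).

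On leaving out 1 library, Spint1 held 3.10 to 3.99 and Mal2 2.06 to 2.83 in the mCherry sort, and -8.72 to -6.45 and -2.88 to -1.60 in the EGFP sort. Krt8 ranged from -0.72 to 0.48 in the EGFP sort. The difference of effects of St14 was 0.59 with the replicate block and -0.63 to 0.88 on leaving out 1 library. A stricter filter removed Spint1 and Krt8 from the EGFP sort and Krt8 and Esrp1 from the mCherry sort.

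To see whether replicate numbers pair, the deviations of log2 CPM from the group mean were correlated over 11888 genes. Same-numbered positive and negative libraries gave 0.306, -0.0857 and 0.176 in the mCherry sort and 0.431, 0.0115 and 0.320 in the EGFP sort. Differently numbered ones gave -0.396 to 0.345 and -0.448 to 0.204. In each sort 1 same-numbered value lay under 0.1, so the numbers were not taken as pairs. Spint1 and Esrp1 had 1 and 3 reads over all EGFP-positive libraries, which limits what their ratios can show.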
